A study of Mus musculus with 16 samples.

Results

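The 10 genes of glucose uptake, glycolysis and lactate handling followed here in sorted mouse Paneth cells were Slc2a1, Hk2, Pfkp, Pfkfb3, Aldoa, Pgk1, Pkm, Ldha, Slc16a1 and Slc16a3. They were chosen by name for these roles, as 10 of the 55414 genes of the deposited count table, and all 10 were among the 11809 genes with enough counts to be tested. Paneth cells are secretory cells at the base of the small intestinal crypts, next to the stem cells, and release antimicrobial proteins. The 16 libraries formed 4 groups of 4, named by a first and a second injection: PBS+PBS (the vehicle at both times), PBS+TNF (vehicle, then tumour necrosis factor), DEX+PBS (DEX, then vehicle) and DEX+TNF (DEX, then tumour necrosis factor). The injections were 1 h apart, and the mice were sampled 3 h after the second. The methods name C57BL/6J mice, with each sample of sorted small intestinal cells taken from an individual animal. The labels give no dose, age or genotype and do not spell out DEX, which usually stands for dexamethasone, a synthetic glucocorticoid. The design text calls the libraries biological replicates.

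Glycolysis splits glucose into pyruvate and yields ATP without oxygen. GLUT1 (Slc2a1) brings glucose into the cell, hexokinase 2 (Hk2) phosphorylates it, and phosphofructokinase (Pfkp encodes the platelet type) commits it to the pathway. The bifunctional enzyme of Pfkfb3 makes the sugar bisphosphate that activates phosphofructokinase. Aldolase A (Aldoa), phosphoglycerate kinase (Pgk1) and the M type pyruvate kinase (Pkm) act further down, lactate dehydrogenase A (Ldha) turns pyruvate into lactate, and the transporters MCT1 (Slc16a1) and MCT4 (Slc16a3) carry lactate across the membrane. In the crypt, Paneth cells are known as a glycolytic cell type that passes lactate to the neighbouring stem cells.

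Because the 3 genes that rose after TNF differ in the letters upstream of their start, the 300 bases before the start of the canonical transcript (GRCm39, GENCODE M39) are shown for them and, for comparison, for Pgk1, which did not pass the test. The sequences run 5′ to 3′ on the strand of the gene, and capitals mark matches on either strand to the core of the hypoxia response element (ACGTG, or GCGTG). They are chr6:82751453-82751752 (minus strand) for Hk2, chr13:6698971-6699270 (minus strand) for Pfkp, chr2:11507418-11507717 (minus strand) for Pfkfb3 and chrX:105230406-105230705 (plus strand) for Pgk1.
Hk2: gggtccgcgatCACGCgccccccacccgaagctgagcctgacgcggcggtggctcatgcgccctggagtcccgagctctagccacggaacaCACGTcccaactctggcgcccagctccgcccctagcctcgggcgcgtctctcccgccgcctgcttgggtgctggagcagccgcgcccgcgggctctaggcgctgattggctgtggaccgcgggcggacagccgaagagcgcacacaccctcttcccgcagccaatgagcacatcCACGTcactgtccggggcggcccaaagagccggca
Pfkp: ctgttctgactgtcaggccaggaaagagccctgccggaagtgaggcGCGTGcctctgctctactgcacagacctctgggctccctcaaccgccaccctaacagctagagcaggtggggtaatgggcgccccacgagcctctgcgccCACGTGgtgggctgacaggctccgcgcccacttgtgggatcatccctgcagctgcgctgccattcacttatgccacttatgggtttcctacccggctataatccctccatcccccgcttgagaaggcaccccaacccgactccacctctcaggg
Pfkfb3: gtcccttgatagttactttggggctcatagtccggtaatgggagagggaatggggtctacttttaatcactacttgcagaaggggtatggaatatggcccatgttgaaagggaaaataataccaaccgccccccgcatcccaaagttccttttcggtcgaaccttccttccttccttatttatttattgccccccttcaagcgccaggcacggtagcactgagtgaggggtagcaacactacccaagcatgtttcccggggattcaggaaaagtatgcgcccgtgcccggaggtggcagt
Pgk1: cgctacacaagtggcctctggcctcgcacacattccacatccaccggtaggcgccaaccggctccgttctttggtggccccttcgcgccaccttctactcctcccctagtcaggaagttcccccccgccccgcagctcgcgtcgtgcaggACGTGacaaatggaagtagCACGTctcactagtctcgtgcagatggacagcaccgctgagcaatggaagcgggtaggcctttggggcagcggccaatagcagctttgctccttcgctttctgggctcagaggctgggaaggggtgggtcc

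Hk2 had ACGTG at 209 to 205 and at 35 to 31 bases before the start, both on the opposite strand. The match in Pfkp at 154 to 149 is the palindrome CACGTG, an E-box that holds ACGTG on both strands. The Pfkfb3 window held neither core, but Pfkfb3 has 30 annotated transcripts, and starts other than the canonical one were not searched. Over the 10 genes, ACGTG was found in 6 windows (Hk2, Pfkp, Aldoa, Pgk1, Ldha and Slc16a1), against 19.672% of 21757 protein-coding genes. GCGTG was found in 6 of 10 (33.966% of all) and CACGTG in 3 of 10 (6.954% of all). The core of the glucocorticoid response element, ACANNNTGT, was present in 1 of 10, at Pkm (6.527% of all), and an NF-kB consensus in 0 of 10 (6.187% of all). A match of letters says nothing of binding, and genes with and without ACGTG were found among those that rose and among those that did not pass the test.

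Per length of transcript, Aldoa and Ldha stood far above the other genes. Their mean level over the 16 libraries was 97.0 and 94.7 RPKM (normalized CPM divided by the length of the canonical transcript in kilobases). Pkm followed with 21.9, Pfkfb3 with 14.2, Pgk1 with 10.04, Pfkp with 8.85, Hk2 with 6.97, Slc2a1 with 3.52, Slc16a1 with 2.66 and Slc16a3 with 0.878 RPKM. In PBS+PBS alone Aldoa (94.0 ± 13.03, SD, n = 4) and Ldha (94.3 ± 45.0) did not differ beyond their spread, and neither did Slc2a1 (2.68 ± 0.900), Slc16a1 (2.35 ± 0.535) and Hk2 (2.30 ± 0.993). Slc16a3 (0.577 ± 0.410) and Pfkfb3 (0.860 ± 0.216) were the lowest in that group. The order depends on the length used: with all merged exons, Ldha ranked 1 and Aldoa 2, while Pkm moved from rank 3 to rank 6 and Pfkp from rank 6 to rank 8.

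Several steps are also served by relatives of the 10 genes. Pklr, the liver and red cell type of pyruvate kinase, had a mean of 13.2 RPKM beside Pkm. Hk1 had 5.05 RPKM, Pfkl 3.24 and the glucose cotransporter Slc5a1 6.49. The lactate and pyruvate transporter Slc16a7 had 4.69 RPKM, above both Slc16a1 and Slc16a3, and Bsg, the chaperone that takes MCT1 and MCT4 to the membrane, had 147. Ldhb, the other main subunit of lactate dehydrogenase, had 0.159 RPKM and did not reach the level needed for a test.

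**Figure D1:**
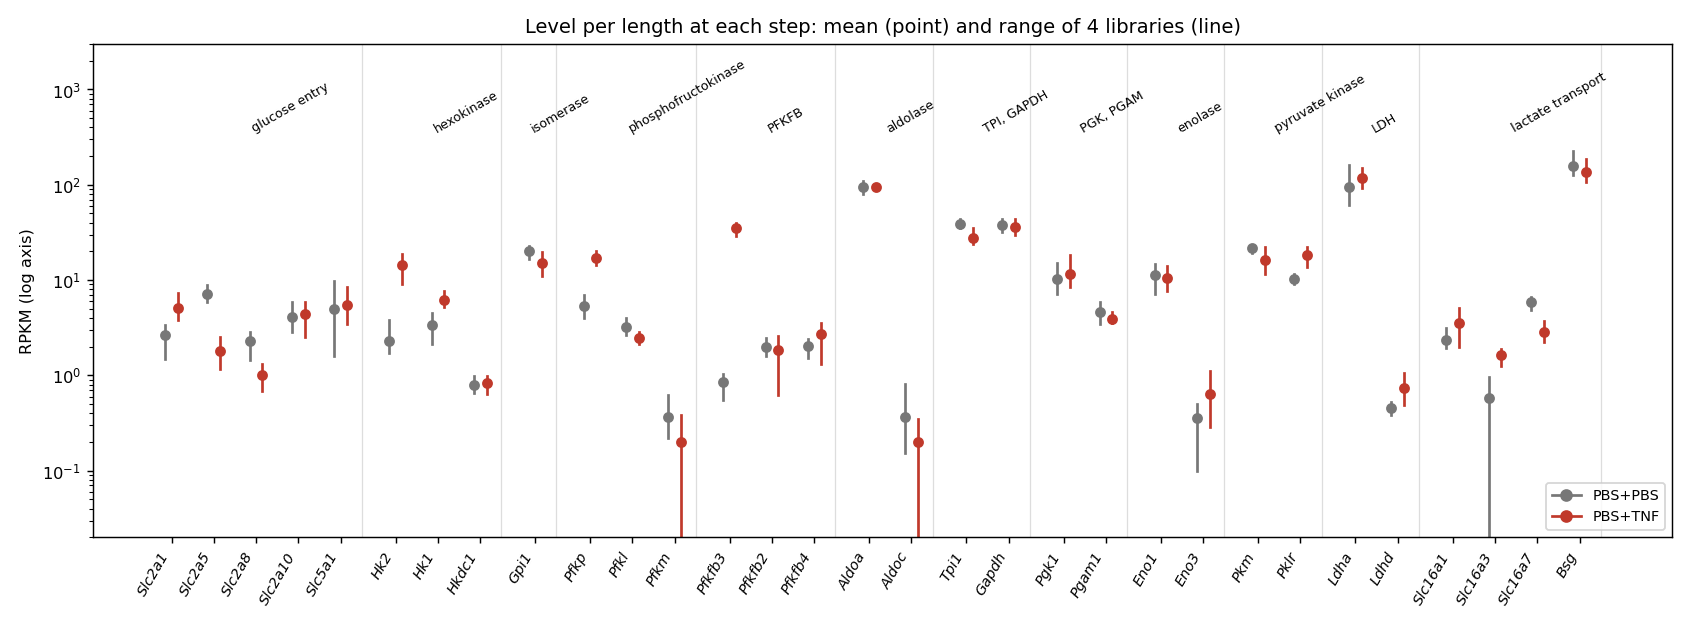
Level per length (RPKM, logarithmic axis) of the 10 genes and their relatives, ordered by step, in PBS+PBS (grey) and PBS+TNF (red); points are means and lines the range of 4 libraries, and a line to the lower edge means a library with no count. Pfkfb3 goes from 0.860 to 35.1 RPKM between the groups and Aldoa from 94.0 to 94.8.

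Libraries held 7286307 to 15832111 counts, and 13089 to 16451 genes had a count. The 10 genes together took 0.0289% to 0.131% of the counts of a library, and the 10 most abundant genes of each library took 50.4% to 76.2%. Scaling factors of the trimmed mean of M-values (TMM) ran from 0.418 in PBS+TNF 1 and 0.503 in PBS+PBS 4 to 1.502 in DEX+TNF 4. Values below in normalized CPM (the usual counts-per-million scale, with these factors applied) rest on this scaling. Paneth cell markers (Lyz1, Mmp7, Ang4, Itln1, Pla2g2a and Sox9) summed to between 159699 and 270300 plain CPM, without the TMM factor, and stromal markers to at most 1.57. Markers of other cell types were higher than the stromal ones. Goblet cell markers summed to 9364 to 22931, stem cell markers to 278 to 2293 and immune markers to 42.5 to 389. Among the goblet cell markers, Spink4 had a mean of 10195 plain CPM, Muc2 3306 and Zg16 9.17. Among the immune markers, Cd74 had a mean of 85.2 plain CPM, Lyz2 52.0 and Ptprc 3.29. Cd3e, S100a8 and S100a9 of that list had no count in any of the 16 libraries. Tuft cell markers summed to 0.165 to 857 and enterocyte genes to 18.3 to 639.7. Nfkbia, the NF-kB inhibitor induced by NF-kB itself, was at 277 to 337 normalized CPM in PBS+TNF and at 15.6 to 24.1 in PBS+PBS. In DEX+TNF it was at 330 and 382 in libraries 1 and 2 but at 28.3 and 41.0 in libraries 3 and 4, near the 19.5 to 27.3 of DEX+PBS. These 2 libraries thus lacked the high level of this TNF target seen in libraries 1 and 2, and the cause was not tested. Results that rest on DEX+TNF are given with and without them. Sgk1, a glucocorticoid target, reached 17.6 to 48.5 normalized CPM after DEX and PBS and 24.8 to 115 after DEX and TNF. The PBS+PBS libraries had 1.11 to 3.64 and the PBS+TNF libraries 4.82 to 7.94. For Fkbp5, another such target, every library with DEX (43.2 or more) lay above every library without it (31.0 or less). Tsc22d3, also such a target, was at 11.4 and 10.7 in DEX+TNF 1 and 2 but at 24.9 and 49.4 in 3 and 4. Libraries 1 and 2 lay within the PBS+PBS range (10.1 to 16.8), above PBS+TNF (4.82 to 7.13) and below DEX+PBS (20.3 to 27.0). This split ran opposite to that of Nfkbia, and its cause was not tested.

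How the 10 genes respond to TNF without DEX was read from PBS+TNF against PBS+PBS. Pfkfb3, Pfkp and Hk2 rose, and the other 7 genes did not pass the test. Thus 3 of 10 genes were called at an adjusted p under 0.05 (edgeR quasi-likelihood test, Benjamini-Hochberg over 11809 genes), all higher, where 12.5% of all tested genes were called and 7.15% were called as higher. The summed Paneth cell markers were lower in every PBS+TNF library (167808 to 194449 plain CPM) than in every PBS+PBS library (200278 to 270300). The sums of goblet cell markers overlapped, at 16640.3 to 22931 in PBS+TNF and 9364 to 20284 in PBS+PBS. The part of these markers in the results was not tested. The median log2 fold change was 0.76 over the 10 genes and -0.03 over all genes. In 5 of the 10 genes the libraries of the groups did not overlap, against 19.5% of all tested genes, and the same 5 (Slc2a1, Hk2, Pfkp, Pfkfb3 and Slc16a3) had an unadjusted p under 0.05, against 26.4%. DESeq2 called 5 of the 10, with Slc2a1 and Slc16a3 in addition. With upper-quartile in place of TMM factors, the median of all genes was -0.15 and 46.3% rather than 57.2% of all called genes were higher, while the same 3 genes were called.

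Pfkfb3 (ENSMUSG00000026773, chromosome 2, 11476244 to 11558888, minus strand) was at 3.08, 5.30, 5.87 and 5.15 normalized CPM in PBS+PBS libraries 1 to 4 and at 164, 226, 178 and 225 in PBS+TNF. Every library with TNF lay far above every library without it. The fold change was 40.7, or 5.35 on the log2 scale (SE 0.69, 95% interval 3.90 to 6.79, edgeR adjusted p = 0.000417). The mean level rose from 4.85 ± 1.22 to 198 ± 31.9 normalized CPM (SD, n = 4).

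Hk2 (ENSMUSG00000000628, chromosome 6, 82699740 to 82751469, minus strand) was at 13.5, 29.4, 15.3 and 13.3 normalized CPM in PBS+PBS and at 95.2, 138, 71.5 and 146 in PBS+TNF. The groups did not overlap, and PBS+PBS 2 stood above the other 3 libraries of its group. The log2 fold change was 2.65 (SE 0.49, 95% interval 1.61 to 3.69, edgeR adjusted p = 0.00285), which is 6.27-fold.

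Pfkp (ENSMUSG00000021196, chromosome 13, 6629798 to 6698970, minus strand) was at 17.2, 25.3, 29.95 and 19.7 normalized CPM in PBS+PBS and at 80.5, 86.0, 62.6 and 67.8 in PBS+TNF. The lowest library with TNF was above the highest without it. The log2 fold change was 1.68 (SE 0.31, 95% interval 1.02 to 2.35, edgeR adjusted p = 0.00292). Exons of Pfkp share 1831 bases with Pitrm1 on the other strand, and whether strand was used in counting is not stated.

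**Figure D2:**
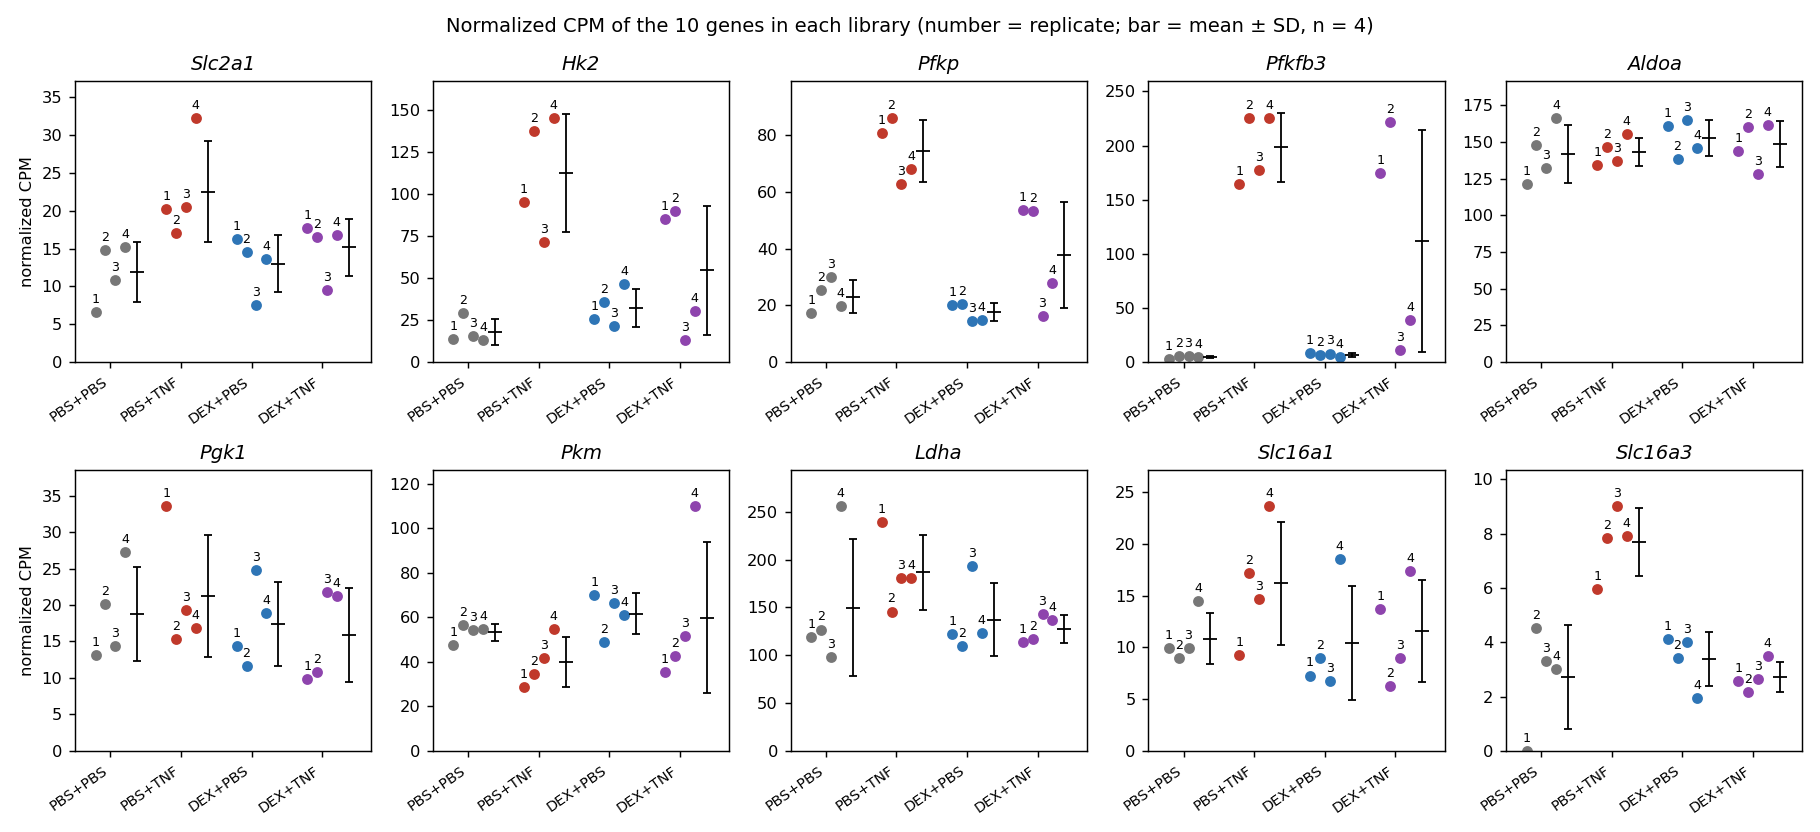
Normalized CPM of the 10 genes in each of the 16 libraries, with libraries numbered and the mean ± SD (n = 4) beside each group. Pfkfb3, Hk2 and Pfkp separate PBS+TNF from PBS+PBS, Aldoa lies between 121 and 167 in all libraries, and in DEX+TNF libraries 3 and 4 lie below libraries 1 and 2 for Pfkfb3, Hk2 and Pfkp.

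The transporters did not pass the test. The glucose transporter Slc2a1 (ENSMUSG00000028645, chromosome 4, 118965908 to 118996365, plus strand) was at 6.68, 14.9, 10.9 and 15.2 normalized CPM in PBS+PBS and at 20.2, 17.1, 20.5 and 32.3 in PBS+TNF. The groups did not overlap, but the log2 fold change of 0.92 (SE 0.30, 95% interval 0.29 to 1.56) had an edgeR adjusted p of 0.0534, just above the threshold. When 1 library was left out at a time, this p ranged from 0.0383 to 0.171, and it was under 0.05 without PBS+PBS 4 (0.0436), DEX+PBS 3 (0.0423) or DEX+TNF 3 (0.0383).

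The lactate exporter Slc16a3 (ENSMUSG00000025161, chromosome 11, 120838846 to 120851694, plus strand) had no count in PBS+PBS 1, where 3 counts would be 0.257 normalized CPM, and 4.53, 3.31 and 3.01 normalized CPM in the other libraries of that group. In PBS+TNF it was at 5.97, 7.84, 8.999 and 7.92, all above PBS+PBS. Its log2 fold change of 1.49 (SE 0.59) had an edgeR adjusted p of 0.111, and without PBS+PBS 1 it was 1.08 with an adjusted p of 0.0430. These are low values, at 0 to 160 counts in a library, and 4529 exon bases are shared with Csnk1d on the other strand. Slc16a1, the other lactate transporter, had means of 10.8 ± 2.46 and 16.2 ± 5.96 normalized CPM (log2 fold change 0.60, 95% interval -0.17 to 1.37).

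The enzymes of the lower pathway did not pass the test either. Aldoa had the same mean within its spread, 142 ± 19.7 normalized CPM in PBS+PBS and 143 ± 9.71 in PBS+TNF, with a 95% interval of the log2 fold change from -0.36 to 0.39. Pkm was at 47.6, 56.6, 54.1 and 54.6 in PBS+PBS and at 28.7, 34.4, 41.5 and 54.5 in PBS+TNF, a log2 fold change of -0.42 (95% interval -1.04 to 0.21). It was the only one of the 10 genes with a fold change below 0 in this comparison. Exons of Aldoa share 2320 bases with Gm57854, and those of Pkm 3157 bases with Gm49759, on the same strand, so how reads there were assigned can affect both levels.

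Ldha (log2 fold change 0.32, 95% interval -0.28 to 0.92) and Pgk1 (0.17, 95% interval -0.54 to 0.88) varied widely within groups. Ldha was at 119, 127, 98.1 and 255 normalized CPM in PBS+PBS and at 239.7, 146, 181 and 180.5 in PBS+TNF, so PBS+PBS 4 was the highest of all libraries. In all 4 groups the library with the highest Ldha, and the one with the highest Pgk1, was the library with the lowest TMM factor of its group. In plain CPM, PBS+PBS 4 had 128 for Ldha against 124 to 140 in the other 3 libraries, and PBS+TNF 1 had 100.1 against 183 to 260.4. The part of the scaling in these values was not tested. The whole coding sequences of Ldha, Pgk1 and Pkm have near-identical copies elsewhere in the genome (5, 4 and 1 loci), so some of their reads could match several places, while no such copy was found for Slc2a1, Hk2, Pfkp, Pfkfb3, Aldoa, Slc16a1 or Slc16a3.

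Among 85 other listed genes of the pathway and its control, 65 were tested, and 16 were called after TNF, 7 higher and 9 lower. That is 24.6%, against 12.5% of all tested genes. Most of the glycolytic enzymes on the list did not pass: of 17 tested, Hk1 (log2 fold change 0.88, edgeR adjusted p = 0.0318) and Pklr (0.83, adjusted p = 0.0116) rose. Hk1 was called in 11 of 16 fits without a single library. The other 15, Gapdh, Tpi1 and Eno1 among them, did not pass the test. The whole coding sequences of Gapdh and Eno1 have near-identical copies at 79 and 3 other loci, and 41.5% of that of Tpi1 at 1. Some reads of these genes could therefore match several places.

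Of 6 tested genes of sugar entry, Slc2a5, the fructose transporter, fell by 1.97 on the log2 scale (adjusted p = 0.00465) and Slc2a8 by 1.16 (adjusted p = 0.0178), and Slc5a1 did not pass. Slc2a5 is also abundant in enterocytes, and a list of 9 enterocyte genes summed to 26.4 to 148 plain CPM in PBS+PBS and 29.4 to 81.1 in PBS+TNF. Without Slc5a1, a gene of both lists, the sums were 19.2 to 128 and 9.08 to 57.3. Several genes of that list had no count in single libraries, up to 7 of the 9 in PBS+TNF 2. The part of these cells in the value of Slc2a5 was not tested, and in bulk libraries fewer cells of a type cannot be told apart from less RNA per cell.

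Of 16 tested genes of lactate and pyruvate handling, 6 were called. Slc16a7 fell by 1.05 on the log2 scale (adjusted p = 0.00917), from 64.5 ± 8.18 to 31.2 ± 7.13 normalized CPM. Among genes that set the entry of pyruvate into mitochondrial oxidation, Pdha1, a subunit of pyruvate dehydrogenase, fell by 0.74, and the kinases that switch this enzyme off, Pdk1 and Pdk2, fell by 1.03 and 1.00. Of the phosphatases that switch it on, Pdp1 rose (log2 fold change 1.96, adjusted p = 0.00799) and Pdp2 fell (-0.88, adjusted p = 0.0202). Pdk2 was called in 11 and Pdp2 in 12 of 16 fits without a single library, Pdk2 was not called with only the groups compared (adjusted p = 0.0642), and Pdp2 was not called without a low-count filter (adjusted p = 0.0521). The list thus held changes in both directions, and the median over its 16 genes was -0.26. Pck1, which makes phosphoenolpyruvate for gluconeogenesis, was the only one of 7 tested gluconeogenic genes that was called (1.25, adjusted p = 0.0184).

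Of 19 tested genes of the hypoxia-inducible factors and their known targets, 3 rose and 2 fell. Hif1a, the oxygen-regulated subunit, rose from 30.4 ± 8.11 to 72.7 ± 16.2 normalized CPM (log2 fold change 1.25, adjusted p = 0.00544). Egln3, an oxygen sensor and HIF target, rose by 2.87 (adjusted p = 0.0189) from 0 to 4.27 normalized CPM in PBS+PBS to 9.44 to 15.2 in PBS+TNF. Ddit4 rose by 0.85 (adjusted p = 0.0327), a call that held in 10 of 16 fits without a single library (adjusted p up to 0.106) and was lost with upper-quartile factors or without a low-count filter. Egln1, the main oxygen sensor, fell by 1.05, and Ndrg1, a HIF target in many cells, fell by 1.25 (adjusted p = 0.00292). The other 14 did not pass the test, and the median of the list was 0.00434.

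**Figure D3:**
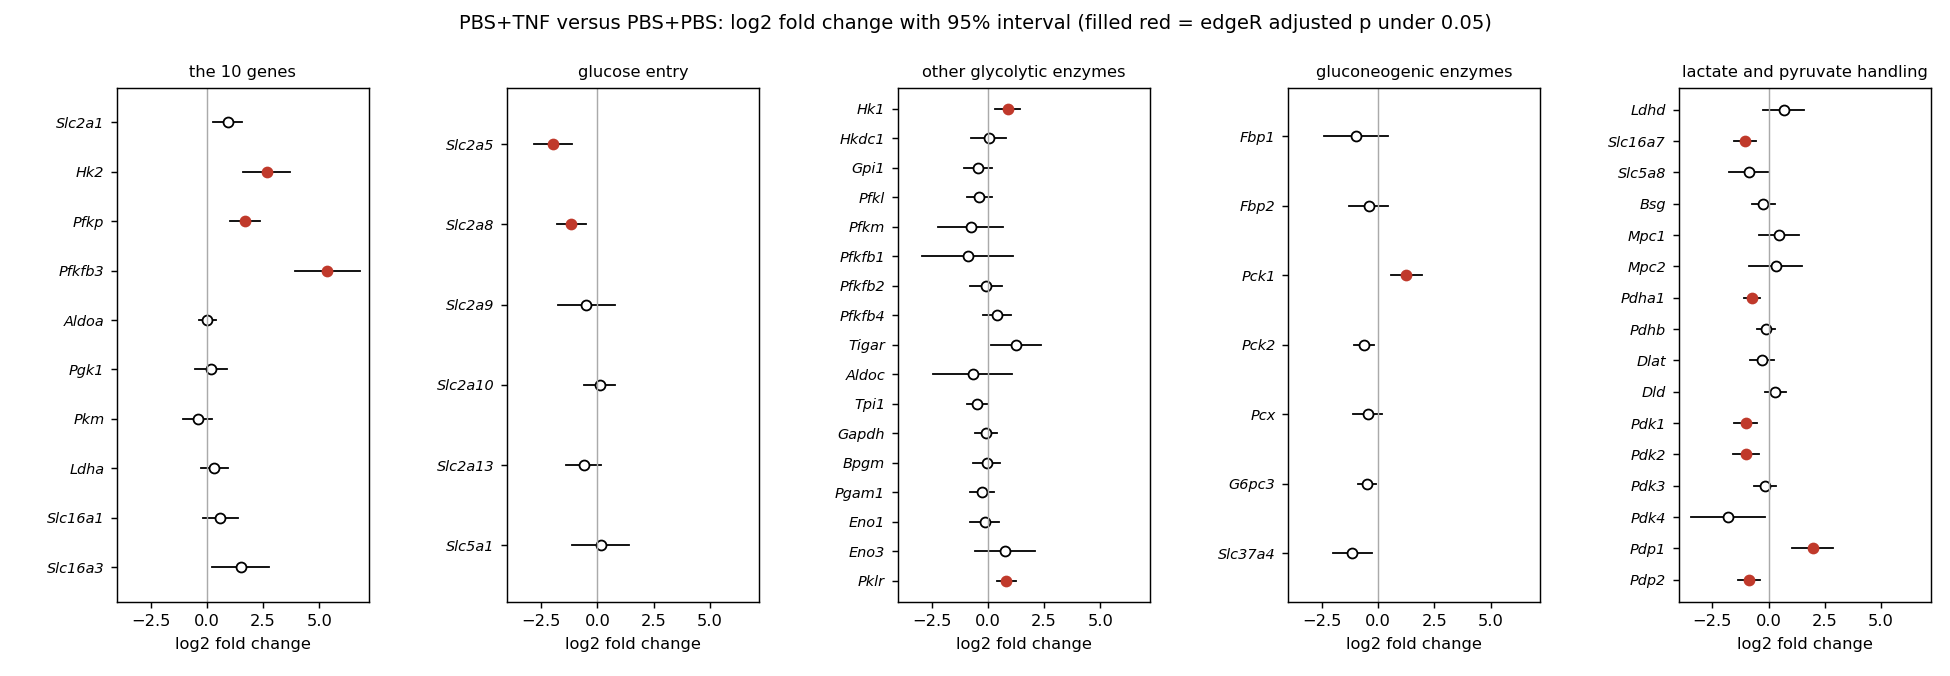
Log2 fold change of PBS+TNF versus PBS+PBS with its 95% interval for the 10 genes and 4 lists of related genes; filled red points had an edgeR adjusted p under 0.05. Among the 10 genes only Hk2, Pfkp and Pfkfb3 are filled, at 2.65, 1.68 and 5.35, while the filled points of the other lists lie on both sides of 0.

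An effect of DEX alone was sought by setting DEX+PBS against PBS+PBS. None of the 10 genes was called by edgeR or by DESeq2, and none had an unadjusted p under 0.05, where 0.00847% and 1.9% of all tested genes did by edgeR. All 10 genes overlapped between the groups (1.88% of all genes did not). Hk2 had the largest value, a log2 fold change of 0.85 (95% interval -0.14 to 1.84), with 25.5, 36.1, 21.3 and 46.4 normalized CPM in DEX+PBS. Of these libraries 2 were above and 2 below the highest PBS+PBS library. That library, PBS+PBS 2, was at 29.4 normalized CPM, with the others of its group at 13.3 to 15.3. When it was left out, the log2 fold change of Hk2 was 1.20 and was not called. Pfkfb3 was at 8.37, 6.81, 8.02 and 4.44 (log2 fold change 0.49, 95% interval -0.77 to 1.76), and Pfkp had -0.40 (95% interval -1.05 to 0.25). The intervals leave room for changes of these sizes, so no effect of DEX was detectable in these genes with 4 libraries a group. None of the 65 other pathway genes was called.

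Whether TNF still changed the genes once DEX had been given was read from DEX+TNF against DEX+PBS. Pfkfb3 was the only one of 10 called, where 0.339% of all tested genes were called (0.322% higher and 0.0169% lower). It was also the only one without overlap between the groups, against 4.68% of all genes, and with Pfkp one of 2 with an unadjusted p under 0.05, against 10.4%. It was at 175, 222, 10.9 and 38.9 normalized CPM in DEX+TNF libraries 1 to 4. Libraries 1 and 2 were as high as the PBS+TNF libraries, library 3 just above DEX+PBS, and library 4 between. The log2 fold change was 4.02 (SE 0.65, 95% interval 2.66 to 5.38, edgeR adjusted p = 0.0456). Leaving out 1 library at a time, Pfkfb3 was called in 2 of 16 fits, those without DEX+TNF 3 and without DEX+TNF 4, with adjusted p from 0.000329 to 0.183 over the 16 fits. It was not called by edgeR with only the groups compared (adjusted p = 0.407), without a low-count filter (adjusted p = 0.0833) or with the replicate number as a block (adjusted p = 0.117).

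The split within DEX+TNF was the same for Hk2 and Pfkp. Hk2 was at 85.1, 89.9, 13.4 and 30.7 normalized CPM, with a log2 fold change of 0.76 versus DEX+PBS (95% interval -0.23 to 1.74). Pfkp was at 53.7, 53.3, 16.2 and 27.8 (1.11, 95% interval 0.45 to 1.77, adjusted p = 0.149). For both genes libraries 1 and 2 lay above every DEX+PBS library, library 3 did not, and library 4 was above the DEX+PBS range for Pfkp alone. Slc2a1 was at 17.7, 16.5, 9.59 and 16.9, with library 3 alone lower. Tuft cell markers summed to 1.56 and 0.165 plain CPM in libraries 1 and 2 and to 117 and 857 in libraries 3 and 4. The enterocyte genes were at 18.3 and 22.2 against 41.8 and 639.7. Sums like those of library 3 also occurred in other groups. Tuft cell markers reached 183 in PBS+TNF and 108 in DEX+PBS, and enterocyte genes were at 35.2 to 54.6 in DEX+PBS. The part of these markers in the result was not tested.

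Libraries 3 and 4 were left out after seeing the data, for their low level of the TNF target Nfkbia. This choice keeps libraries by their TNF response, so the calls that follow cannot test whether TNF acted after DEX. Without them, 3 of the 10 genes were called versus DEX+PBS, where 10.5% of all genes were called. They were Pfkfb3 (log2 fold change 4.86, adjusted p = 2.72e-08), Pfkp (1.61, adjusted p = 0.000305) and Hk2 (1.43, adjusted p = 0.0165). The same 3 genes were called after PBS. These fits rest on 2 libraries of DEX+TNF, which were the most alike of all 24 pairs within groups (chi-square per degree of freedom 8.78, next 23.5).

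**Figure D4:**
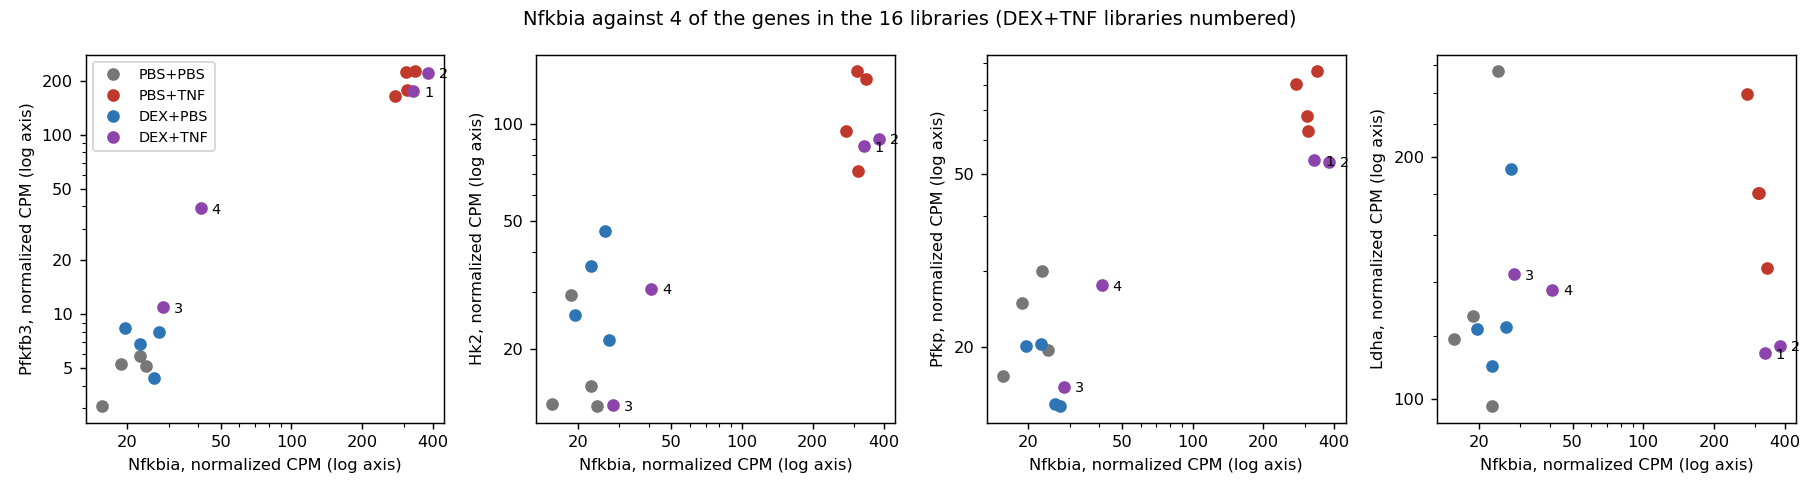
Pfkfb3, Hk2, Pfkp and Ldha against Nfkbia in the 16 libraries, both in normalized CPM on logarithmic axes, coloured by group and with the DEX+TNF libraries numbered. For Pfkfb3, Hk2 and Pfkp, DEX+TNF 1 and 2 lie near the PBS+TNF libraries and 3 and 4 lower; Ldha shows no such order, with DEX+TNF 1 and 2 at 114 and 117.

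Whether DEX given first altered the levels under TNF was read from DEX+TNF against PBS+TNF. None of the 10 genes was called by edgeR or DESeq2, where edgeR called 0.339% of all genes (0.22% higher and 0.119% lower). At an unadjusted p under 0.05, 3 of 10 passed (11.9% of all genes): Hk2, Pfkp and Slc16a3. Their log2 fold changes were -1.04 (adjusted p = 0.387), -0.98 (adjusted p = 0.192) and -1.49 (adjusted p = 0.321). The median over the 10 genes was -0.56 and over all genes 0.03, and 8 of the 10 values were below 0.

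In 3 genes the groups did not overlap (6.38% of all genes), Pfkp, Ldha and Slc16a3, each lower in DEX+TNF. The summed goblet cell markers did not overlap either, at 9644 to 15858 plain CPM in DEX+TNF and 16640.3 to 22931 in PBS+TNF, and their part in these values was not tested. Ldha was at 114, 117, 143 and 137 normalized CPM in DEX+TNF, below the 146 to 239.7 of PBS+TNF, with a log2 fold change of -0.55 (95% interval -1.15 to 0.06). Slc16a3 was at 2.58, 2.18, 2.65 and 3.49, in the range of DEX+PBS (1.94 to 4.13) and below the 5.97 to 8.999 of PBS+TNF. All 4 libraries shared this low level, including 1 and 2, where Pfkfb3 was as high as after PBS. Slc16a3 was called in this comparison when PBS+PBS 1 was left out of the fit (-1.49, adjusted p = 0.0365), and in no other fit without a single library.

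Leaving out libraries 3 and 4 keeps libraries by their TNF response, so the values that follow cannot test whether DEX altered it. Without libraries 3 and 4, the value of Pfkfb3 went from -0.83 to 0.00335, that of Hk2 to -0.36 and that of Pfkp to -0.47. Those of Ldha (-0.69), Pgk1 (-1.01), Slc16a1 (-0.71) and Slc16a3 (-1.69) were as low as or lower than with them, and none was called. Pkm had 109.8 normalized CPM in DEX+TNF 4 against 35.5, 42.5 and 51.4 in the other 3 libraries, and its log2 fold change went from 0.59 to -0.03. In DEX+TNF 4 the 5 tuft cell markers summed to 857 plain CPM and the 9 enterocyte genes to 639.7, against at most 117 and 41.8 in the other libraries of the group, and none of these markers was at 0. Markers of stem cells (2293 against 555 to 651) and of cycling cells (208 against 18.7 to 26.6) also stood apart from the rest of the group. In PBS+TNF 4, DEX+PBS 4 and PBS+PBS 4, stem cell markers summed to 1594, 1570 and 499.6 plain CPM. Cycling cell markers there summed to 136, 167 and 27.4, and Pkm was at 54.5, 61.0 and 54.6 normalized CPM. The methods describe a sort by flow cytometry that should remove such cells, and their part in the value of Pkm was not tested.

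**Figure D5:**
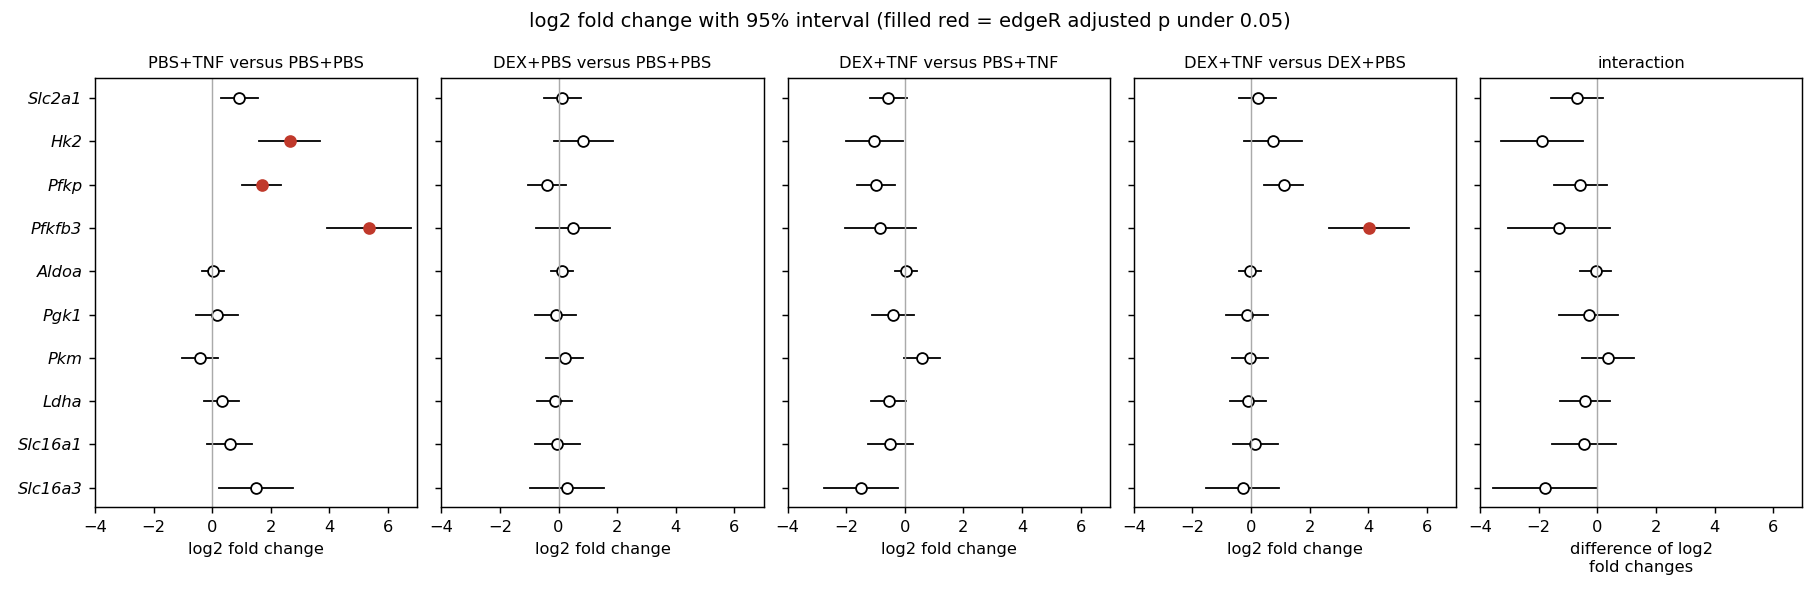
Log2 fold changes of the 10 genes with 95% intervals in the 4 pairwise comparisons and, at the right, the interaction (how far the effect of TNF given after DEX exceeds the one after PBS); filled red points had an edgeR adjusted p under 0.05. Hk2, Pfkp and Pfkfb3 are filled for TNF after PBS and Pfkfb3 alone for TNF after DEX.

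Whether the TNF effect itself differed after DEX was tested as an interaction. None of the 10 genes was called by edgeR or DESeq2, and 0% of all genes were called by edgeR (9 genes by DESeq2). Hk2 (-1.89, SE 0.66, unadjusted p = 0.0108, edgeR adjusted p = 0.786) and Slc16a3 (-1.78, SE 0.84, unadjusted p = 0.0487, edgeR adjusted p = 0.905) had an unadjusted p under 0.05, as did 5.44% of all genes. Of the comparisons behind the value of Hk2, TNF after PBS passed the test (2.65, edgeR adjusted p = 0.00285). TNF after DEX did not, and neither did DEX alone or DEX before TNF. DEX+PBS had a mean of 32.3 ± 11.3 normalized CPM against 17.9 ± 7.74 in PBS+PBS, and DEX+TNF, with its split libraries, 54.8 ± 38.5 against 112 ± 35.1 in PBS+TNF. Pfkfb3 had -1.32 (95% interval -3.06 to 0.42), and without DEX+TNF 3 and 4 it had -0.49, Hk2 -1.21 and Slc16a3 -1.97, none called. The values without DEX+TNF 3 and 4 cannot test the interaction, since those libraries were left out by their TNF response.

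Among other genes of the pathway, 2 were called in DEX+TNF versus PBS+TNF, both higher. Pdk4, the pyruvate dehydrogenase kinase that glucocorticoids induce in many tissues, had a log2 fold change of 4.43 (adjusted p = 0.0295), with 3.95 to 41.3 normalized CPM in DEX+TNF and 0.193 to 1.63 in PBS+TNF. Hif3a had 2.64 (adjusted p = 0.0276), with 12.9 to 18.9 against 1.44 to 3.38. Egln3, which had risen after TNF alone, was at 0.408 to 2.51 normalized CPM in all 4 DEX+TNF libraries (-2.80, adjusted p = 0.114), below the 9.44 to 15.2 of PBS+TNF. Of the called pair, neither passed without DEX+TNF 3 and 4, where Pdk4 had 2.23 and Hif3a 2.49, and each was called in 10 of 16 fits without a single library. None was called versus DEX+PBS or for the interaction.

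Across the 16 libraries, on log2 CPM, the genes that rose varied together. Pearson's r was 0.92 for Pfkp and Pfkfb3, 0.88 for Hk2 and Pfkfb3 and 0.85 for Hk2 and Pfkp, and 0.91, 0.79 and 0.80 after removal of the group means. Ldha and Pgk1 formed another pair (r = 0.80, and 0.80 after removal). These values describe libraries that share groups, depth and scaling, and the removal leaves the split within DEX+TNF in place. The tested genes most like each were Tnip1 (r = 0.985), Gpr37l1 (0.981) and Ifngr2 (0.980) for Pfkfb3, Mvp (0.958), Tgfbr2 (0.949) and Shb (0.947) for Hk2, and Dtx3l (0.973), Parp14 (0.969) and Sbno2 (0.967) for Pfkp, each over 16 libraries.

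The summed level of the 10 genes was 435 ± 100.4 normalized CPM in PBS+PBS, 822 ± 72.1 in PBS+TNF, 452 ± 46.0 in DEX+PBS and 585 ± 135 in DEX+TNF (SD, n = 4). The 4 PBS+TNF libraries, at 734 to 910, lay above all PBS+PBS libraries, at 351 to 575, and Pfkfb3, Hk2 and Pfkp made up most of the gap between the means.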

How the data were processed

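RNA of sorted Paneth cells was measured in 16 libraries of 4 groups, taken from the sample labels. The authors deposited raw read counts per Ensembl gene. Per the labels, libraries were TruSeq Stranded mRNA, and the processing notes name STAR 2.7.10a, FastQC 0.12 and the mm39 build; the methods name GENCODE M30. The program that made the counts, and how multimapped reads and strand were treated, are not given in the sources used here. Gene records came from GENCODE M39 on GRCm39, which held 54749 of 55414 identifiers.

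Genes were filtered with filterByExpr, scaled by TMM and fitted over all 16 libraries with edgeR 4.0.16 (quasi-likelihood, robust, group means). The 4 pairwise contrasts and the interaction were tested two-sided, with Benjamini-Hochberg adjustment within each over 11809 genes. SE is the size of the log2 fold change divided by the square root of F. The script was tested on simulated data. Depth was 7286307 to 15832111 counts per library. Single libraries held few counts of some genes that are discussed (from 0 for Slc16a3 and Egln3, 1 for Pdk4, 8 for Hif3a, 9 for Slc2a8 and 36 for Pfkfb3), where counting error is large.

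The 10 genes, the lists of related genes, and the tests were chosen with earlier results of these data known. All 10 genes are named in every comparison. Related genes are named where called, with the listed relative of the highest RPKM at some steps. For each called gene of the 10, the 3 tested genes of highest correlation are named. Other genes named as not passing the test or as levels were chosen after their values were seen. A listed gene is not reported here, and lists and counts leave it out. Near-identical copies were sought with BLAST+ 2.17.0 (coding sequence, at least 95% identity over 75 bases). The alternatives tried were DESeq2 1.42.0, scaling by median-of-ratios, by upper quartile or by TMM computed without the alpha-defensin genes, testing unfiltered genes or those with a mean CPM of 5 or more, fitting only the groups compared, the replicate number as a block, each library left out, and, added after seeing the data, DEX+TNF 3 and 4 left out together and merged exon length. All 24 pairs of libraries within groups differed by more than sampling noise and were counted separately.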

Additional observations from a re-analysis of the deposited data

Results flagged for a closer look

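Of 40 combinations of gene and group, 3 held a library whose gap to the nearest other library exceeded Dixon's 95% critical value for 4 values, where chance gives about 1 in 20. Hk2 in PBS+PBS 2 was at 29.4 normalized CPM, with the other 3 libraries at 13.3 to 15.3, and it stayed below every PBS+TNF library. Ldha in DEX+PBS 3 was at 193 normalized CPM, with the others at 109.9 to 123. Slc2a1 in DEX+TNF 3 was at 9.59 normalized CPM, with the others at 16.5 to 17.7. No cause was tested for these values.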

How the results depend on the processing

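Hk2, Pfkp and Pfkfb3 were called in PBS+TNF versus PBS+PBS under every alternative run. The number of the 10 genes called there was 3, 5 by DESeq2, and 3 to 4 with a library left out. In DEX+TNF versus PBS+TNF it was 0, and 0 to 1 with a library left out. In DEX+TNF versus DEX+PBS it was 1 against 0 without a low-count filter, 0 with only the groups compared, 2 by DESeq2 and 3 without DEX+TNF 3 and 4, and 0 to 2 with a library left out. The data did not settle whether the replicate numbers pair the libraries. Of 24 same-numbered pairs, 12 had r over 0.1 (r from -0.37 to 0.50, median 0.11). Of 72 other pairs, 20 did (median -0.06), and 7 of 16 libraries were closest to their own number. With the replicate block the count in DEX+TNF versus DEX+PBS was 0, Pfkfb3 having 3.78 (edgeR adjusted p = 0.117). Slc2a1 was then called after TNF alone (0.92, edgeR adjusted p = 0.0431).

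Over all genes, 40 were called in DEX+TNF versus PBS+TNF, against 274 by DESeq2, 16 with the block and 0 with only the groups compared or without DEX+TNF 3 and 4. With a library left out, 0 to 102 were called. In DEX+TNF versus DEX+PBS 40 were called, against 259 by DESeq2, 6 without a filter, 0 with the block or only the groups compared, and 1286 without DEX+TNF 3 and 4. When a library was left out, 362 were called without DEX+TNF 3, 230 without DEX+TNF 4 and 0 in every other such fit. In DEX+PBS versus PBS+PBS 1 was called, against 7 by DESeq2 and 2 without DEX+TNF 3 and 4.

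Directions turned only for values that were not called. Aldoa after TNF had -0.10 with upper-quartile factors and -0.024 with a mean of at least 5 CPM. Without DEX+TNF 3 and 4, Pfkfb3 had 0.00335 and Pkm -0.030 versus PBS+TNF, Slc16a1 had -0.077 versus DEX+PBS, and the interaction of Pkm was -0.24. With a library left out, values after TNF alone ran from -0.056 to 0.075 for Aldoa and from -0.14 to 0.38 for Pgk1. For DEX alone they ran from -0.064 to 0.32 for Slc2a1, -0.12 to 0.66 for Slc16a3, -0.31 to 0.12 for Pgk1, -0.34 to 0.25 for Ldha and -0.49 to 0.12 for Slc16a1. Versus DEX+PBS they ran from -0.50 to 0.14 for Pkm, -0.31 to 0.085 for Pgk1, -0.20 to 0.11 for Ldha, -0.11 to 0.60 for Slc16a1 and -0.086 to 0.023 for Aldoa, and for the interaction from -0.12 to 0.014 for Aldoa, -0.50 to 0.011 for Pgk1, -0.71 to 0.0011 for Slc16a1 and -0.082 to 0.57 for Pkm. The cause was not tested. Of 1858 values under an alternative, 1685 kept direction and side of the threshold.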
